A study of Mus musculus with 14 samples.

Results

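NRF2, encoded by Nfe2l2, is the transcription factor of the oxidative and electrophilic stress response, and the metallothioneins are small metal-binding proteins. The genes examined here were Nfe2l2, 7 of its target genes (Nqo1, Gclc, Gclm, Srxn1, Txnrd1, Slc7a11 and Gsr) and the metallothionein genes Mt1 and Mt2. They were matched by gene name, from a list made with earlier results of these data known, and all 10 were found, among 54532 genes in the liver counts and among 16481 genes in the table of pancreatic stellate cells (PSCs). Both tissues were measured by RNA-Seq in mouse. PSCs, the fibroblast-like cells of the pancreas, were cultured on Matrigel-coated plates. Cells of each of 3 preparations received DMSO or 25 μM Yoda1, an agonist of PIEZO1. PIEZO1 is a mechanically activated, calcium-permeable channel. The treatment time is given as 24 hours in the study's methods and as 72 hours in a supplemental legend. The livers came from mice 8 to 12 weeks old, of both sexes, that had received 100000 KPCY cells, a mouse pancreatic cancer line with a yellow fluorescent tracer, in the tail of the pancreas 20 days earlier. There were 2 WT livers, 3 TRPV4-KO livers and 3 livers of WT mice given GSK219. The mice called WT carried floxed Piezo1 alleles (Piezo1 fl/fl). TRPV4-KO was a deletion in the whole animal, whereas the injected KPCY cells still carried Trpv4. GSK219 (GSK2193874) is an antagonist of the TRPV4 channel and was given by gavage at 10 mg/kg each day in a cavitron carrier. Whether WT mice were given the carrier alone is not stated. Samples are labelled as biological replicates.

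In unstressed cells NRF2 is held by KEAP1 and degraded. Electrophiles and oxidants disarm KEAP1, after which NRF2 enters the nucleus, pairs with small MAF proteins and binds antioxidant response elements (AREs) near genes for glutathione synthesis, thioredoxin recycling and detoxification. Metallothioneins are switched on mainly by the zinc-sensing factor MTF1 at metal response elements (MREs), and in liver also by glucocorticoids and by the acute-phase response to inflammation.

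Libraries held 15567031 to 17395299 counts per liver and 27312894 to 39070539 reads per PSC library. Trpv4 itself had 43 and 53 counts in WT livers, 15, 5 and 23 in TRPV4-KO livers, and 20, 30 and 36 in GSK219 livers, so reads on the gene remained in the livers labelled TRPV4-KO. Hepatocyte markers (8 genes, Alb among them) summed to 58400 to 102000 CPM (counts scaled to library size) in the livers, and all 8 were found. In PSC libraries, 10 of 11 markers of stellate cells and fibroblasts were listed, and Gfap was not. Their summed value was 914000 to 1020000 with DMSO and 452000 to 565000 with Yoda1. Markers of ductal epithelium (7 of 7 listed, summed value 58500 to 131000) and of mesothelium (5 of 5, 10900 to 16000) were present in every PSC library. Endothelial markers (4 of 6 listed) summed to 1700 to 2080 with DMSO and to 1060 to 1310 with Yoda1, and macrophage markers (5 of 8) to 627 to 1170. The endothelial markers did not all fall with Yoda1. In the limma fit with the replicate block (below), 3 of the 4 had log2 fold changes above 0 (median 0.79). The other, Kdr, was at -1.07. The part of these cells in the PSC results was not tested. Of 7 acinar markers, Amy2a2 was not listed, and the others summed to 1050, 3640 and 6190 in preparations 1, 2 and 3 with DMSO and to 1280, 4580 and 12500 with Yoda1. In bulk RNA-Seq, fewer cells of a type and less RNA per cell cannot be told apart.

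To show where letters that match the core of an ARE or MRE lie, the promoters of the members whose change in PSCs passed the test (Gclm and Txnrd1), of Srxn1 and of both metallothioneins are given. Each is a RefSeq window on GRCm38.p6 of 300 bases, from 250 before the transcript start. The windows are chr3:122245307-122245606 (+) for Gclm, chr10:82858956-82859255 (+) for the second of 3 Txnrd1 windows, and chr2:152105274-152105573 (+) for Srxn1. The metallothionein windows are chr8:94178839-94179138 (+) for Mt1 and chr8:94172368-94172667 (+) for Mt2. Capitals mark matches to the ARE core TGACNNNGC in Gclm, Txnrd1 and Srxn1, and matches to the MRE core (TGCACNC or TGCGCNC) in Mt1 and Mt2, on either strand.
Gclm: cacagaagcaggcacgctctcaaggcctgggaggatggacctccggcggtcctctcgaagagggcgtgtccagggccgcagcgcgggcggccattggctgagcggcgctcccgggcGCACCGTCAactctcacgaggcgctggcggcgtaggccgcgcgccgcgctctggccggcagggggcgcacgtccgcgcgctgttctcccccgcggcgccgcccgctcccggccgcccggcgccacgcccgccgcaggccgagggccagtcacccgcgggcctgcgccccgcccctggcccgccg
Txnrd1: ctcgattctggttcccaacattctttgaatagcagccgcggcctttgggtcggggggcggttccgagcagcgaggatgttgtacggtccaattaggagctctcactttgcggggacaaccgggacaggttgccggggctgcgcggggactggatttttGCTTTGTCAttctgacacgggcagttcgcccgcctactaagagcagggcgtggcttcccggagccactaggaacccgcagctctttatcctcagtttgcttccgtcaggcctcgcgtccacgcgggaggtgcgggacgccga
Srxn1: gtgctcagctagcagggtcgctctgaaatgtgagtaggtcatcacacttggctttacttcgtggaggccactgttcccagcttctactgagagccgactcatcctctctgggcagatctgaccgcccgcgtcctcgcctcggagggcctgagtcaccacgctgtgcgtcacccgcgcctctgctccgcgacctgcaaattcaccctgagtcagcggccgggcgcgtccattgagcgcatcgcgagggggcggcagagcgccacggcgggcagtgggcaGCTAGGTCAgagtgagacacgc
Mt1: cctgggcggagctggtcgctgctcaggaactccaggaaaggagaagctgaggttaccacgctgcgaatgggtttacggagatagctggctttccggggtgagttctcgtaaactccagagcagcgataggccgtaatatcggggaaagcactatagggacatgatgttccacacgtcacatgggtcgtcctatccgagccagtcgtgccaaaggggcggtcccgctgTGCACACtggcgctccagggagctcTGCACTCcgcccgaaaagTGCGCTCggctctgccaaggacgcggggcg
Mt2: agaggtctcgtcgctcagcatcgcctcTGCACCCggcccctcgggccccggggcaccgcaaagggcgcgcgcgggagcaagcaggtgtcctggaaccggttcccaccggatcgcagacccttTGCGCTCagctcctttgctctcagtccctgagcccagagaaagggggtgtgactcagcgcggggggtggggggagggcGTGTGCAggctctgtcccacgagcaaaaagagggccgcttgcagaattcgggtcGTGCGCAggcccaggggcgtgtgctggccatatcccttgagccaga
The Gclm, Srxn1, Nfe2l2 and Mt2 windows held 1 ARE core each, as did 1 of the 3 Txnrd1 windows, against 12.4% of all 32851 promoter windows. MRE cores numbered 4 in Mt2, 3 in Mt1, 3 in Gclm and 1 in Srxn1. In Gclm, 1 of the MRE matches overlapped the ARE match. At least 1 MRE core was present in 25.7% of all windows, and 4 or more in 0.52%. The windows of Nqo1 and Slc7a11 held neither core. Of the 10 genes 8 were matched to a window, and Gclc and Gsr were not. Such matches describe the letters of these windows and were not measured as binding. Mt2 and Mt1 are neighbours on chromosome 8, on the same strand, with 5513 bases between them.

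All 10 genes were higher in PSCs treated with Yoda1, in 3 of 3 preparations. For each of the 10, every Yoda1 library was also above every DMSO library. Among all 15145 genes tested, 27.2% were higher with Yoda1 in each preparation, and 14.9% had all Yoda1 libraries above all DMSO libraries. The median log2 fold change was 0.92 over the 10 genes and -0.01 over all genes tested. Values are reads divided by a size factor per library, as deposited. They were tested by limma on the log2 scale after adding 1, with Benjamini-Hochberg adjustment over all genes tested, and a gene was called when its adjusted p was under 0.05. Txnrd1 and Gclm were called, 2 of 10 members, against 1.20% of all genes called higher with Yoda1. With the preparation as a replicate block, 2 members were called and 2.11% of all genes. Whole reads could be recovered from the deposited values, and count models fitted to them called more members. The quasi-likelihood test of edgeR called 6 (2.24% of all genes), edgeR with the replicate block 7 (9.14%) and DESeq2 8 (5.07%). Mt1 and Mt2 were called by none of these 5 fits. With any 1 of the 6 libraries left out of the limma fit, no member was called, and the adjusted p of Txnrd1 was then 0.053 to 0.12 and that of Gclm 0.055 to 0.14. Calls over all genes dropped as well in these fits, to 0.0266%, 0% and 0.207% higher with Yoda1 without DMSO library 1, 2 or 3 and to 0.0334%, 0% and 0.334% without Yoda1 library 1, 2 or 3. The unadjusted p was under 0.05 for 8 of the 10 with all libraries, and for 3170 of all 15145 genes.

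**Figure D1:**
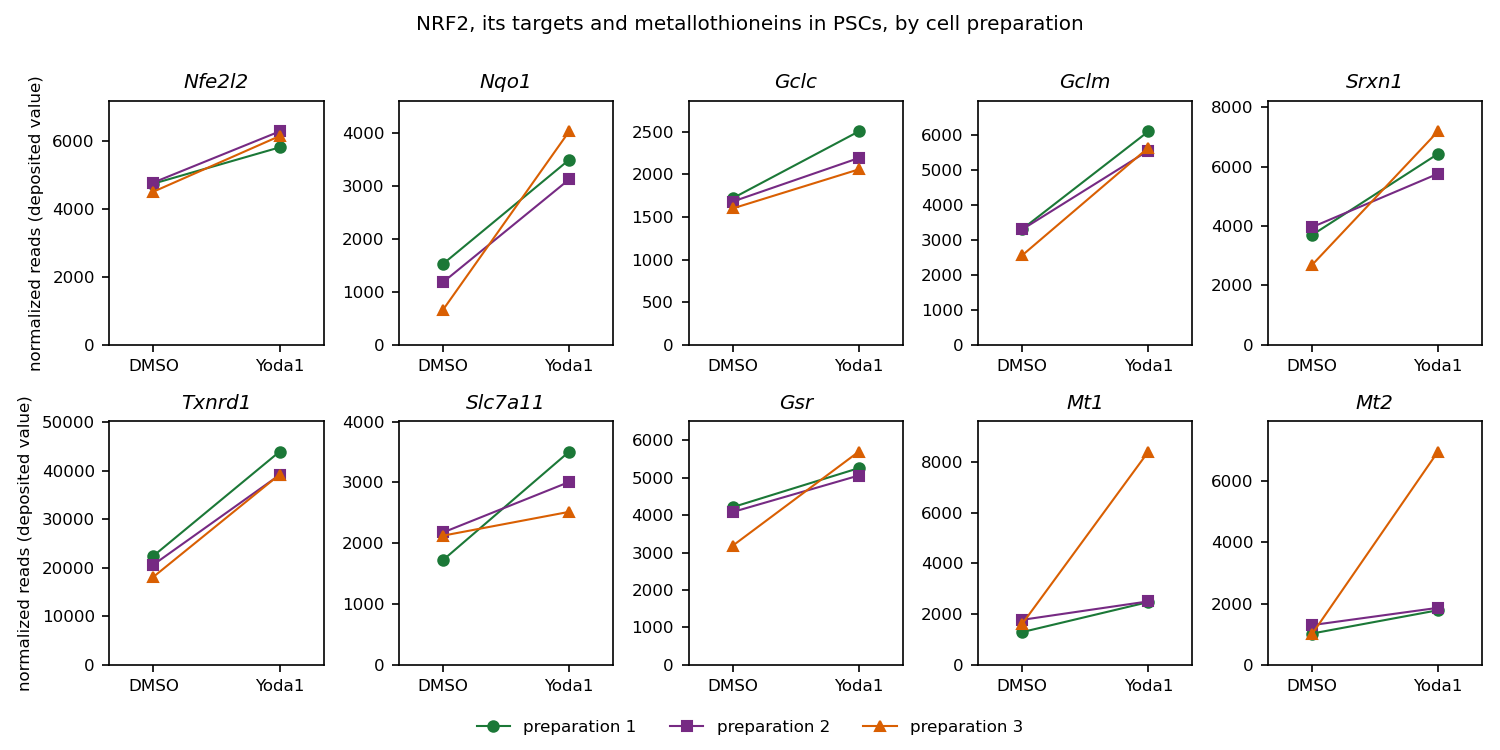
Each panel plots one gene, with the deposited normalized read value on the y axis and the treatment on the x axis, and each line joins the DMSO and Yoda1 libraries of one PSC preparation (3 preparations). All lines rise from left to right, and preparation 3 stands far above the others for Mt1 (8405) and Mt2 (6955) with Yoda1.

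Txnrd1, the cytosolic thioredoxin reductase that returns oxidized thioredoxin to its active form, had values of 22498, 20679 and 18173 with DMSO and 43975, 39176 and 39250 with Yoda1 in preparations 1, 2 and 3. It rose 1.95-, 1.89- and 2.16-fold in the 3 preparations, with little spread between them. The log2 fold change was 1.00 ± 0.10 (SE, adjusted p = 0.026, limma). Srxn1 encodes sulfiredoxin, which repairs overoxidized peroxiredoxins. Its values were 3693, 3960 and 2681 with DMSO and 6432, 5763 and 7190 with Yoda1, a log2 fold change of 0.92 ± 0.17 (adjusted p = 0.064). Preparation 3 had the lowest DMSO value and the highest Yoda1 value, so Srxn1 differed 2.68-fold there against 1.74- and 1.46-fold in the other 2.

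Gclm and Gclc encode the modifier and the catalytic subunit of glutamate-cysteine ligase, the rate-limiting enzyme of glutathione synthesis. Gclm, with DMSO values of 3306, 3297 and 2557 and Yoda1 values of 6098, 5550 and 5633, rose by a log2 fold change of 0.92 ± 0.12 (adjusted p = 0.035). Gclc was at 1720, 1680 and 1600 with DMSO and at 2504, 2191 and 2058 with Yoda1, and its log2 fold change was 0.43 ± 0.09 (adjusted p = 0.080 by limma). For Gclc the adjusted p was 0.061 by limma with the replicate block and 0.036 by edgeR on the reads. The intervals of 2 standard errors on each side, 0.68 to 1.17 for Gclm and 0.24 to 0.61 for Gclc, did not overlap, although the difference between the subunits was not tested. Slc7a11 encodes the cystine transporter xCT, which supplies cysteine for glutathione. It had values of 1725, 2178 and 2126 with DMSO and 3506, 3008 and 2517 with Yoda1 (log2 fold change 0.58 ± 0.16, adjusted p = 0.13). The preparations differed here in the other direction from Srxn1, with 2.03-fold in preparation 1, 1.38-fold in preparation 2 and 1.18-fold in preparation 3. Gsr, the glutathione reductase that uses NADPH to regenerate glutathione, was at 4213, 4084 and 3184 with DMSO and at 5256, 5059 and 5695 with Yoda1 (log2 fold change 0.49 ± 0.13, adjusted p = 0.12).

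Nqo1, a quinone reductase widely read as a reporter of NRF2 activity, had the largest log2 fold change of the 10 by limma, 1.73 ± 0.32 (adjusted p = 0.062). By edgeR on the reads Mt2 (1.69) was slightly above Nqo1 (1.67). Nqo1 had values of 1524, 1179 and 659 with DMSO and 3488, 3117 and 4023 with Yoda1. It was 2.29-, 2.64- and 6.10-fold higher in preparations 1, 2 and 3. The spread lay in the DMSO libraries more than in the Yoda1 libraries (SD 435 of a mean of 1121, against 455 of 3543). edgeR on the reads gave adjusted p = 0.032. For Nfe2l2 itself, values were 4753, 4786 and 4516 with DMSO and 5823, 6293 and 6155 with Yoda1. This was the smallest log2 fold change of the 10, at 0.38 ± 0.06, with the smallest SE of the 10 (adjusted p = 0.054 by limma and 0.018 by edgeR on the reads).

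Mt1 and Mt2 differed most in preparation 3, as did Nfe2l2, Nqo1, Gclm, Srxn1, Txnrd1 and Gsr. Mt1 was at 1294, 1778 and 1620 with DMSO and at 2478, 2505 and 8405 with Yoda1 in preparations 1, 2 and 3. Mt2 was at 1022, 1298 and 996 with DMSO and at 1783, 1862 and 6955 with Yoda1. Preparations 1 and 2 were thus 1.91- and 1.41-fold higher for Mt1 and 1.74- and 1.43-fold higher for Mt2, whereas preparation 3 was 5.19-fold higher for Mt1 and 6.98-fold higher for Mt2. The log2 fold changes were 1.27 ± 0.51 for Mt1 and 1.37 ± 0.56 for Mt2 (adjusted p = 0.24 for both). In a fit without preparation 3, chosen after the values were seen, they were 0.72 ± 0.18 and 0.66 ± 0.14 (adjusted p = 0.12 and 0.097). The log2 fold change of Nqo1 was 1.30 in that fit, and Txnrd1 (adjusted p = 0.048) and Gclm (0.047) were still called, 2 members against 1.10% of all genes called higher. The Yoda1 library of preparation 3 also had the highest summed values of acinar markers (12500), of ductal epithelial markers (131000) and of macrophage markers (1170, against 627 to 812 in the other 5 libraries). Over the 3 preparations, 4 of 6 acinar, 1 of 7 ductal and 1 of 5 macrophage markers tested were above 0 with Yoda1. Their median log2 fold changes were 0.32, -0.04 and -0.39 (limma), and the macrophage marker above 0 was Cd68. The part of these cells in the metallothionein values was not tested. The most alike genes over the 6 libraries were found from log2 values centred on each gene's mean, by the mean absolute difference. For Mt1 they were Mt2 (0.10), Snhg11 (0.15) and Cpa4 (0.15), and for Mt2 they were Mt1 (0.10), Snhg11 (0.12) and Cpa4 (0.24). Nqo1 was most like Tnxb (0.09), A630095E13Rik (0.10) and Ptgir (0.14). Slc7a11 was most like Pik3r6, 2900002K06Rik and AC170752.1 (0.06 each).

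Compared per kilobase of gene length, Txnrd1 was the most abundant of the 10 in DMSO-treated PSCs, with a median normalized value of 2918 per kb. Mt2 followed at 1739. Gsr (1483), Srxn1 (1310), Mt1 (1300) and Nfe2l2 (1252) came next, and in this order each overlapped the next in range. Nqo1 (759), Gclm (524) and Gclc (446) were lower, again with ranges that overlapped from one to the next, and Slc7a11 was lowest at 153. With Yoda1, Nqo1 moved from the seventh to the fourth place, at 2246 per kb, and its range then overlapped that of Mt1.

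The wider NRF2 program was read from lists of other genes, chosen like the members with earlier results of these data known. Of 21 other NRF2 targets, all tested, 3 rose with Yoda1 by limma (against 1.20% of all genes) and none fell. A log2 fold change above 0 was found for 20 of them, against 7405 of all 15145 genes (median 0.79, against -0.01). The 3 called were Esd (0.79 ± 0.07, adjusted p = 0.020), Fth1, the ferritin heavy chain (0.80 ± 0.10, adjusted p = 0.032), and Pir (1.05 ± 0.15, adjusted p = 0.036). With the replicate block limma called 2 (2.11% of all genes), and the adjusted p was 0.037 for Esd, 0.052 for Fth1 and 0.066 for Pir. With edgeR and the block, 17 of the 21 were called higher, against 9.14% of all genes. Of 16 glutathione S-transferases tested, 3 rose by limma (against 1.20% of all genes), Gsta3 (1.87 ± 0.21), Gstp1 (0.67 ± 0.09) and Mgst2 (1.70 ± 0.25), and 15 were above 0 (median 0.71). These enzymes attach glutathione to electrophiles. Of the 6 genes for NADPH supply, 2 rose by limma (against 1.20% of all genes), both in the pentose phosphate pathway. They were G6pdx (0.68 ± 0.07, adjusted p = 0.026) and Pgd (0.68 ± 0.10, adjusted p = 0.038), and all 6 were above 0 (median 0.55).

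By limma, 1 of 11 genes of glutathione turnover and peroxidases fell, the peroxidase Gpx1 (-0.65 ± 0.09, adjusted p = 0.036, against 1.15% of all genes called lower), and none rose (median 0.26). With the replicate block the adjusted p of Gpx1 was 0.058 by limma, which then called 2 others lower, the glutathione-cleaving Ggt5 (-1.38, adjusted p = 0.043) and Gpx3 (-0.45, adjusted p = 0.048), and edgeR called 3 higher and 3 lower. Over all genes with the block, limma called 286 of 15145 lower. The blocked edgeR fit called 1391 of 15220 higher (9.14%) and 1344 lower. None of 11 thioredoxins and peroxiredoxins was called by limma (median 0.05), 2 were called higher by edgeR with the block (against 9.14% of all genes), and the smallest p were those of Prdx6 (0.51 ± 0.09, adjusted p = 0.053) and Prdx1 (1.00 ± 0.24, adjusted p = 0.099). None of 9 regulators and partners of NRF2 was called by limma (median 0.08). The blocked edgeR fit called 1 higher and 1 lower, against 9.14% of all genes higher and 1344 of 15220 lower. Bach1, which competes with NRF2 for AREs, was at -0.34 ± 0.10 (adjusted p = 0.13) and Sqstm1, the autophagy adaptor p62, at 0.40 ± 0.12 (adjusted p = 0.15). ATF4 is the factor of the amino acid stress response and has Slc7a11 as a target too. Of 20 other ATF4 targets, none was called by limma and 2 were called higher by edgeR with the replicate block, against 9.14% of all genes (median 0.05 by limma). Limma gave Cebpb at 0.69 ± 0.12 (adjusted p = 0.051, and 0.041 with the block) and Gdf15 at 0.48 ± 0.10 (adjusted p = 0.076).

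For the metallothioneins, 7 of 9 relatives and zinc-handling genes were tested in PSCs. None was called by limma or by edgeR on the reads, and the median was -0.03. Mt3 was at 1.68 ± 1.01 (adjusted p = 0.40) and the zinc importer Slc39a14 at -0.11 ± 0.09. Of 9 glucocorticoid-induced genes tested, none was called by limma (median 0.40), 2 were called higher by limma with the replicate block, and 4 were called higher and 1 lower by edgeR with the block. Over all genes, blocked limma called 2.11% higher, and blocked edgeR called 9.14% higher and 1344 of 15220 lower. Limma gave Per1 at 0.40 ± 0.09 (adjusted p = 0.092) and Pdk4 at 1.15 ± 0.28 (adjusted p = 0.10, and 0.041 with the block). Only 6 of 18 acute-phase genes could be tested in these cells, and none was called by limma. With the replicate block, limma called 1 higher, and edgeR called 3 higher and 1 lower, against the same shares of all genes. The copper carrier ceruloplasmin, Cp, was at 1.00 ± 0.32 (adjusted p = 0.16, and 0.043 with the block).

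**Figure D2:**
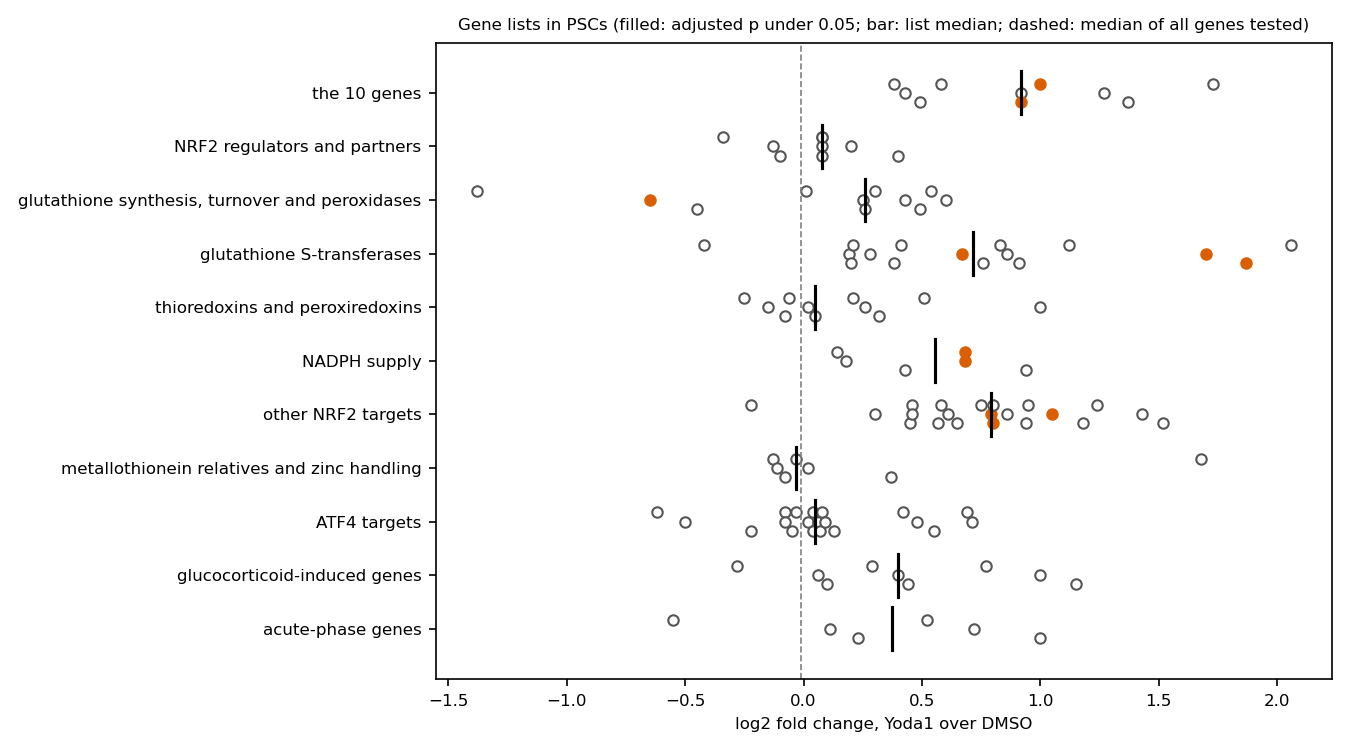
Each point is one gene, placed by its log2 fold change of Yoda1 over DMSO in PSCs (x axis) in the row of its list, and filled points had an adjusted p under 0.05 by limma. The vertical bar in each row is the list median, highest for the 10 genes (0.92) and the other NRF2 targets (0.79), and the dashed line is the median of all genes tested (-0.01).

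In the livers, WT mice were compared with TRPV4-KO and with GSK219-treated mice, which share the WT livers, and the last 2 groups with each other. Of the 10 genes, 9 passed the filter on low counts and were tested, and Slc7a11 did not. Counts were fitted with edgeR (quasi-likelihood) and p-values adjusted over 15118 genes. None of the 9 was called in any of the 3 comparisons, against 0.291% of all genes between WT and TRPV4-KO, 0% between WT and GSK219 and 0.106% between TRPV4-KO and GSK219. At an unadjusted p under 0.05 there were 1, 2 and 2 members in these comparisons, against 2586, 1242 and 925 of all 15118 genes. DESeq2 called Gclc against TRPV4-KO (1 member, 5.19% of all genes) and against GSK219 (1 member, 0.687%), and no member between TRPV4-KO and GSK219 (0.759%). The counts covered 2 WT livers only, and the biological coefficient of variation was 28.3%.

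**Figure D3:**
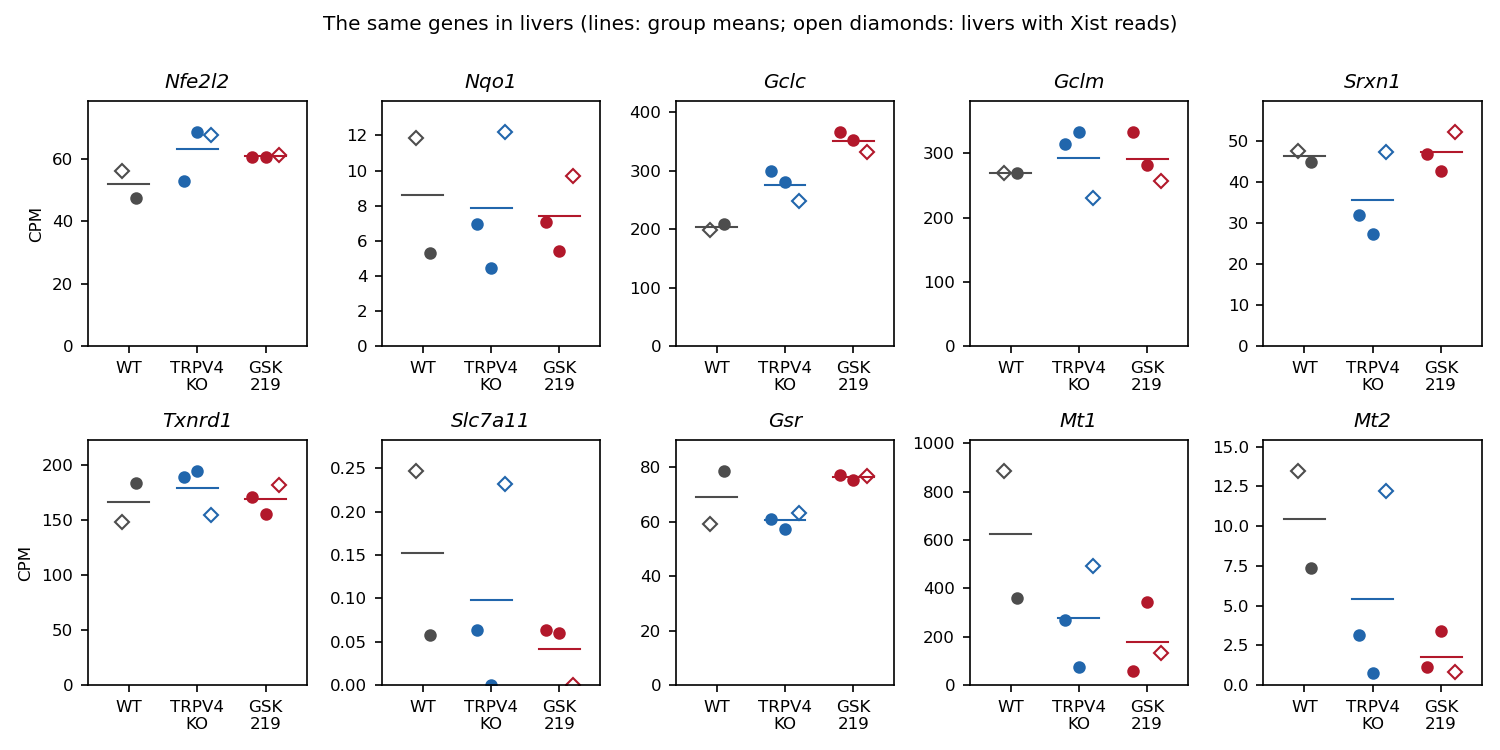
Each panel plots one gene, with CPM on the y axis and the 2 WT, 3 TRPV4-KO and 3 GSK219 livers on the x axis, where lines mark group means and open diamonds mark the livers with Xist reads. Gclc steps up from WT (199 and 210) to GSK219 (333 to 367), Nqo1 is highest in the diamond of each group, and Mt1 and Mt2 spread widely within groups.

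Gclc was the member whose liver groups were most cleanly ordered. It was at 199 and 210 CPM in WT livers, 300, 280 and 248 in TRPV4-KO livers, and 367, 353 and 333 in GSK219 livers. No value of one group overlapped another. This order, every WT below every TRPV4-KO and every TRPV4-KO below every GSK219 liver, was singled out after the values were seen, and 0.119% of the genes tested (18 of 15118) showed it. The log2 fold change of WT over TRPV4-KO was -0.43 ± 0.12 (SE, adjusted p = 0.16), that of WT over GSK219 was -0.78 ± 0.12 (adjusted p = 0.26), and that of TRPV4-KO over GSK219 was -0.35 ± 0.11 (adjusted p = 0.62). DESeq2 gave adjusted p = 0.047, 8.6e-05 and 0.37. Summed hepatocyte markers were also lower in WT livers, at 58400 to 67400 CPM, against 82400 to 102000 in TRPV4-KO and 79300 to 89000 in GSK219 livers. Neutrophil markers (10 genes, all found) summed to 55.4 to 67.0 CPM in WT livers and to 1.58 to 7.18 CPM in the other 2 groups. The part of these cells in the Gclc values was not tested.

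Its partner subunit did not show this order. Gclm was at 270 and 269 CPM in WT livers, 314, 334 and 230 in TRPV4-KO livers, and 334, 282 and 257 in GSK219 livers, so all groups overlapped. Its log2 fold change was -0.12 ± 0.18 against TRPV4-KO and -0.11 ± 0.18 against GSK219. Of the 6291 exonic bases of Gclm, 296 are shared with the antisense gene Gm17494 and 244 with the pseudogene Gm6061, so a small share of reads could be assigned to either.

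Mt1 had the highest median level per kilobase of the 10 in the livers, and its values spread widely within groups. It was at 887 and 360 CPM in WT livers, 270, 75.6 and 490 in TRPV4-KO livers, and 57.3, 342 and 134 in GSK219 livers. The means were 624 ± 372 (SD, n = 2), 279 ± 208 (n = 3) and 178 ± 147 (n = 3). Every WT liver was above every GSK219 liver for both Mt1 and Mt2, 2 of 9 members against 15.6% of all genes tested, and WT and TRPV4-KO livers overlapped. The log2 fold change of Mt1 was 1.16 ± 0.96 for WT over TRPV4-KO (adjusted p = 0.60) and 1.81 ± 0.97 for WT over GSK219 (adjusted p = 0.71). The interval of 2 standard errors on each side was -0.76 to 3.09 in the first and -0.12 to 3.74 in the second, so a change of several fold in Mt1 could not have been told from none with these livers.

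Mt2 had far lower counts than Mt1. It had 218 and 126 counts in WT livers, 50, 12 and 211 in TRPV4-KO livers and 18, 56 and 14 in GSK219 livers. The log2 fold change was 0.94 ± 0.98 for WT over TRPV4-KO (adjusted p = 0.68) and 2.54 ± 1.02 for WT over GSK219 (adjusted p = 0.58). Single livers moved these values: without TRPV4-KO liver 3 the log2 fold change of WT over TRPV4-KO was 2.40 for Mt2 and 1.86 for Mt1, and without WT liver 1 it was 0.46 and 0.39. There were 40.1 to 160 Mt1 reads for each Mt2 read in the livers, and 1.21 to 1.63 in the PSC libraries. In the annotation that matches the liver table (GENCODE M21, GRCm38), 432 of the 588 exonic bases of Mt2 (73.5%) lie opposite exons of the antisense gene Gm45774, which leaves 156 bases to Mt2 alone. Gm45774 had 71 and 9 counts in WT livers, 11, 1 and 69 in TRPV4-KO livers and 0, 33 and 41 in GSK219 livers. Whether the counting used strand is not given in the sources used here, so the liver values of Mt2 are uncertain. The part of this overlap in the ratio of Mt1 to Mt2 was not tested, and PSC and liver libraries also differed in tissue and in the centre that made them.

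**Figure D4:**
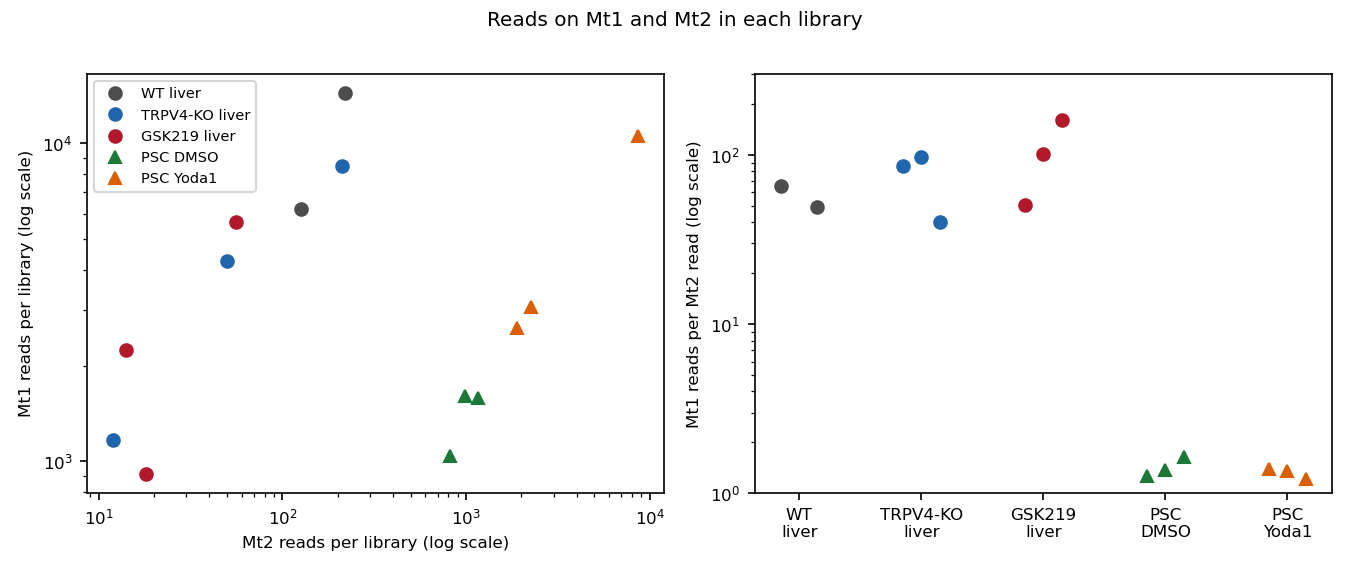
The left panel plots reads on Mt1 against reads on Mt2 for each of 14 libraries, both on log scales, and the right panel the reads on Mt1 for each read on Mt2 by group, on a log scale. Livers lie at 40.1 to 160 and PSC libraries at 1.21 to 1.63.

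Over the 8 livers, the genes most like Mt1 were Mt2 (mean absolute difference of centred log2 CPM 0.43), the collagen gene Col3a1 (0.49) and the macrophage scavenger receptor Marco (0.50). Those most like Mt2 were Mt1 (0.43), Chil1 (0.50) and Col3a1 (0.50). Acute-phase genes were higher in WT livers in 17 of 18 cases in both WT comparisons, with medians of 0.99 and 1.00. Of all 15118 genes tested, 7377 and 7514 had log2 fold changes above 0. Against TRPV4-KO, 2 of 18 were called higher in WT by edgeR, Hpx, the heme carrier hemopexin (1.14 ± 0.16, adjusted p = 0.036), and Saa2 (4.36 ± 0.56, adjusted p = 0.038), and 12 were called higher by DESeq2. Against GSK219 none was called by edgeR, with Saa2 at 4.72 ± 0.57 (adjusted p = 0.17), and 6 were called by DESeq2. Of all genes, edgeR called 0.291% against TRPV4-KO and 0% against GSK219, in either direction. DESeq2 called 5.19% and 0.687%. Of 10 glucocorticoid-induced genes, Per1 was lower in WT than in TRPV4-KO livers (-1.48 ± 0.21, adjusted p = 0.039), and the list medians were -0.02 and -0.10. None of 7 tested zinc-handling genes was called against TRPV4-KO or GSK219 by edgeR or DESeq2, with medians of 0.13 and 0.00.

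Nqo1 differed between livers by a feature that lay across the 3 groups. It was at 11.9 and 5.30 CPM in WT livers, 6.96, 4.47 and 12.2 in TRPV4-KO livers, and 7.05, 5.44 and 9.68 in GSK219 livers. The highest value of each group belonged to the one liver with Xist reads (13681 to 15754 counts) and no Y-linked reads, and the other 5 livers had 0 to 7 Xist counts. In a fit of group and Xist reads, added after the data were seen, Nqo1 was 1.93-fold higher in the 3 livers with Xist reads than in the other 5 (log2 fold change 0.95 ± 0.20, adjusted p = 0.038, edgeR). It was the only member called, of 9 tested, against 3.47% of all genes. Fits that each dropped 1 liver gave log2 fold changes of 0.85 to 1.12. The adjusted p was then 0.047 without GSK219 liver 1 and 0.052 to 0.21 without any of the other 7 livers. Srxn1 was also highest in the liver with Xist reads in each of the 3 groups (0.35 ± 0.12, adjusted p = 0.15). That held for 2 of 9 tested members and for 16.2% of all genes. Gclc was lowest in that liver in each of the 3 groups, 1 of 9 members against 11.8% of all genes. Summed macrophage, endothelial and stellate markers were highest in the liver with Xist reads of every group. Macrophage markers were at 1130 CPM in WT liver 1 and 1020 in WT liver 2. TRPV4-KO liver 3 had 607, against 426 and 288, and GSK219 liver 3 had 703, against 297 and 551. Acinar markers were lowest in each such liver, and hepatocyte, neutrophil, ductal and mesothelial markers kept neither order. Whether these cells had a part in the Nqo1 values was not tested. Between the study's groups, Nqo1 had log2 fold changes of 0.12 ± 0.48 for WT over TRPV4-KO and 0.22 ± 0.48 for WT over GSK219. Both were near 0 when the Xist term was added, at -0.05 ± 0.25 and -0.01 ± 0.25. The genes most like Nqo1 over the livers were Nbdy (0.09), Gimap8 (0.12) and Gpat3 (0.13).

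The remaining members differed little between liver groups. Nfe2l2 was at 56.4 and 47.5 CPM in WT, 53.0, 68.9 and 67.9 in TRPV4-KO and 60.7, 60.7 and 61.5 in GSK219 livers. Both Nfe2l2 and Gclc were below every GSK219 liver in both WT livers, 2 of 9 members against 11.7% of all genes tested. Gclc alone was below every TRPV4-KO liver in WT, 1 of 9 against 15.5%. Gsr was at 59.1 and 78.7 CPM in WT, 61.1, 57.2 and 63.2 in TRPV4-KO and 77.2, 75.3 and 76.6 in GSK219 livers. With Gclc, it was lower in every TRPV4-KO than in every GSK219 liver, 2 of 9 members against 4.35% of all genes (log2 fold change -0.34 ± 0.12, adjusted p = 0.73). Txnrd1, at 149 to 195 CPM, overlapped between all groups, with log2 fold changes of -0.11 ± 0.15 for WT over TRPV4-KO and -0.03 ± 0.15 for WT over GSK219. Srxn1 was at 47.6 and 44.8 CPM in WT, 31.99, 27.4 and 47.2 in TRPV4-KO and 46.8, 42.7 and 52.2 in GSK219 livers. Without TRPV4-KO liver 3, Srxn1 (0.64, adjusted p = 0.036) and Gclc (-0.50, adjusted p = 0.041) were called between WT and TRPV4-KO, 2 members against 8.64% of all genes in that fit. Slc7a11 had 4 and 1 counts in WT livers, 1, 0 and 4 in TRPV4-KO livers and 1, 1 and 0 in GSK219 livers. A count of 0 allows up to 3 counts, so no difference was detectable at this depth.

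**Figure D5:**
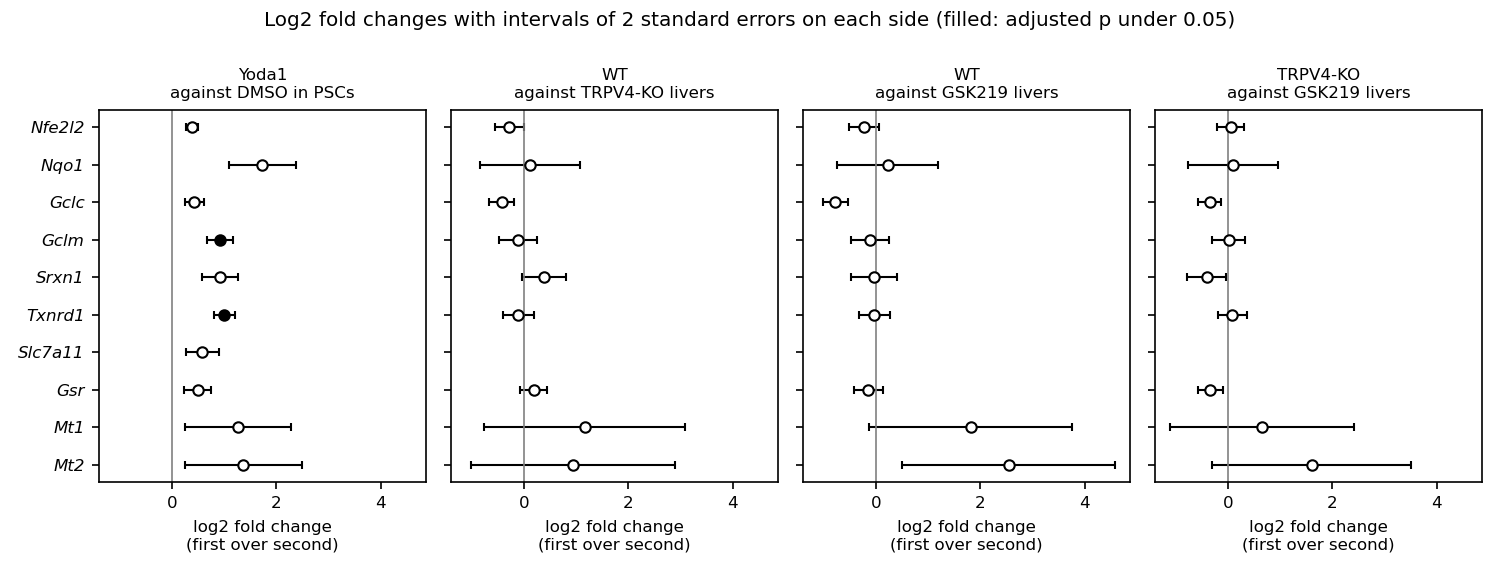
Log2 fold changes (x axis) of the 10 genes in the PSC comparison and in the 3 liver comparisons, with bars of 2 standard errors on each side and filled points for an adjusted p under 0.05. In PSCs all bars lie above 0, although only 2 of the 10 points are filled. In livers the bars of Mt1 and Mt2 span several log2 units and Slc7a11 was not tested.

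Per kilobase, the order of the 10 genes in the livers was led by Mt1 (median 245 CPM per kb), whose range overlapped that of Gclc (77.0). Gclm followed (43.9), with a range that met that of Gclc, and Gsr (25.2) and Txnrd1 (24.97) did not differ beyond their ranges. From Srxn1 (16.2) through Nfe2l2 (16.0) and Mt2 (5.57) to Nqo1 (4.51) each range overlapped the next, and Slc7a11 was last, with 0.00443 CPM per kb. Txnrd1 and Slc7a11, the first and the last in DMSO-treated PSCs, thus held the fifth and the last place in the livers. Values of PSCs and livers were normalized separately and were not tested against each other.

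Among the lists, glutathione S-transferases were lower in WT than in TRPV4-KO livers for 19 of 20 tested (median -0.54, against -0.01 over all genes). By edgeR 1 was called lower in WT, Gsta4 (-1.44 ± 0.16, adjusted p = 0.011), which conjugates the lipid peroxidation product 4-hydroxynonenal, and by DESeq2 5 were called lower. Against GSK219, 17 of 20 were lower in WT (median -0.37), none was called by edgeR and 2 were called lower by DESeq2, with Gsta4 at -1.16 ± 0.16 (adjusted p = 0.18) and Gsta2 at -1.44 ± 0.29 (adjusted p = 0.39). Between TRPV4-KO and GSK219 livers the median was 0.17. Of all genes, edgeR called 0.291% between WT and TRPV4-KO and 0% between WT and GSK219, in either direction. DESeq2 called 5.19% and 0.687%. Of 21 other NRF2 targets, none was called by edgeR in either WT comparison (medians -0.15 and -0.20), and DESeq2 called 1 higher and 1 lower in WT than in TRPV4-KO livers. Hmox1, heme oxygenase, was at 1.02 ± 0.24 against TRPV4-KO (adjusted p = 0.12) and at 0.64 ± 0.24 against GSK219 (adjusted p = 0.57). Esd was at -0.41 ± 0.11 against TRPV4-KO (adjusted p = 0.14). Keap1, the adaptor that targets NRF2 for degradation, was at -0.22 ± 0.12 against TRPV4-KO (adjusted p = 0.40) and -0.16 ± 0.12 against GSK219 (adjusted p = 0.81).

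In the fit of all 8 livers without a block, edgeR called no member of the lists of NRF2 regulators, glutathione turnover, thioredoxins, NADPH supply or ATF4 targets. Between WT and TRPV4-KO, DESeq2 called 2 genes of glutathione turnover higher and 1 lower and 1 thioredoxin or peroxiredoxin lower. Its share over all genes was 5.19%, in either direction. Medians against TRPV4-KO were -0.21 for 9 tested genes of glutathione turnover and peroxidases, -0.12 for 11 thioredoxins and peroxiredoxins, -0.03 for 6 genes of NADPH supply and 0.33 for 19 ATF4 targets. Gpx3, the secreted glutathione peroxidase, was at 1.79 ± 0.41 against TRPV4-KO (adjusted p = 0.12) and 1.32 ± 0.41 against GSK219 (adjusted p = 0.54). Psat1, an enzyme of serine synthesis, was at 1.61 ± 0.49 against TRPV4-KO (adjusted p = 0.18). Summed hepatocyte, neutrophil, macrophage, stellate and epithelial markers did not overlap between WT and the other livers (macrophage markers 1020 to 1130 CPM in WT and 288 to 703 CPM in the others, stellate and fibroblast markers 396 to 596 and 142 to 318 CPM, ductal and tumor epithelial markers 694 to 718 and 448 to 686 CPM), and their part in these lists was not tested.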

How the data were processed

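The members and gene lists were chosen with earlier results of these data known. Livers were compared as WT, TRPV4-KO and GSK219, and PSCs as Yoda1 and DMSO. For the livers, the authors deposited counts of reads per gene, without normalization, and 7 further columns, whose names match none of the samples, were left out. The submitters' notes name HISAT2 2.0.5 and Trim Galore. The counting tool and genome build are not given in the sources used here, and the coordinates of all 10 genes equalled GENCODE M21. The deposited PSC signal is read counts over a size factor of the library. Each of the 98886 values was a whole number of reads within 0.01 (100%). Columns with the authors' fold changes, standard errors, test statistics and p-values were not used.

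Liver counts were fitted with edgeR 4.0.16 in R 4.3.3 (TMM, minimum count 10, robust quasi-likelihood fit of all 8 livers, 15118 genes). CPM are counts scaled to TMM library sizes. PSC values were fitted with limma 3.58.1 on log2(value + 1) for the 15145 genes that reached 10 in 3 or more libraries, so fold changes of low genes are understated. Genes were called at an adjusted p under 0.05. Named genes were all members, up to 4 called genes of each list and comparison by smallest p or, with none called, up to 2, and the 3 genes most like Mt1, Mt2, Nqo1 and Slc7a11 among genes with an SD of log2 values of at least 0.2 (0.5 CPM added in livers). Likeness was not computed for Slc7a11 in livers. A liver was taken to have Xist reads above 1000 counts. PSC numbers pair by preparation, since the descriptions give both libraries of a number one preparation name, and deviations from treatment means correlated at 0.43, 0.26 and 0.53 across genes. Both pipelines were tested on simulated data. Intervals of 2 standard errors cover the spread between samples, whereas the limit for a count of 0 covers counting error only, as reads carried no molecular identifiers and can repeat a molecule. In livers the SE was the absolute log2 fold change over the square root of the F statistic. An interval that excludes 0 is not a call. For Mt2 in PSCs it was 0.26 to 2.49 with an unadjusted p of 0.052 (limma). Alternatives were DESeq2 1.42.0, other normalizations, pseudocounts and filters, the replicate block, only the groups compared, a term for Xist reads and each library left out. The fit without preparation 3 and the test of the Xist term were added after the data were seen.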

Additional observations from a re-analysis of the deposited data

How the results depend on the processing

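In PSCs the number of members called was 2 and changed with the model. It was 0 when a log2 fold change over 1 was also required, 3 with cyclic loess normalization, 4 with a pseudocount of 10, 6 with edgeR on the recovered reads, 7 with edgeR and the replicate block, 8 with DESeq2, and 0 to 0 with each library left out. It was 2 with the replicate block in limma. In livers it was 0 in all 3 comparisons, 1 by DESeq2 for WT against TRPV4-KO and 1 by DESeq2 for WT against GSK219, and 0 to 2 for WT against TRPV4-KO with each liver left out. Members' directions in PSCs did not change under any alternative. Liver replicate numbers did not pair the livers (correlations of deviations -0.48 to 0.58 across genes), and with the replicate block no member was called in any liver comparison. Directions that reversed in livers were all of members that were not called. For Nqo1 the log2 fold change was -0.05 (WT over TRPV4-KO) and -0.01 (WT over GSK219) with a term for Xist reads. For Srxn1 it was 0.12 (WT over GSK219) with the replicate block, and for Gclm (TRPV4-KO over GSK219) -0.04 with upper-quartile normalization, -0.00 with the replicate block and -0.01 in the fit of only the groups compared. With each liver left out, ranges that crossed 0 for WT over TRPV4-KO were -0.56 to 0.61 for Nqo1, -0.26 to 0.05 for Txnrd1 and -0.02 to 0.39 for Gsr. For WT over GSK219 they were -0.49 to 0.68 for Nqo1, -0.20 to 0.11 for Txnrd1, -0.38 to 0.04 for Gsr and -0.10 to 0.05 for Srxn1. For TRPV4-KO over GSK219 they were -0.37 to 0.38 for Nqo1, -0.01 to 0.17 for Nfe2l2, -0.09 to 0.15 for Gclm and -0.04 to 1.54 for Mt1. The cause was not tested. Over all genes, calls (higher and lower) between WT and TRPV4-KO were 25 and 19, but 461 and 321 by DESeq2, 124 and 74 without the filter, 394 and 137 with the replicate block, 347 and 188 with the Xist term and 11 and 9 in the fit of only these groups. Between WT and GSK219, where there were 0 calls, these gave 77 and 30, 8 and 1, 9 and 0, 2 and 2, and 2 and 0, and between TRPV4-KO and GSK219 (9 and 7) 62 and 60, 21 and 23, 9 and 11, 25 and 20, and 7 and 4. In PSCs 181 and 174 genes were called, against 341 and 351 by edgeR on the reads, 1391 and 1344 by edgeR with the replicate block, 787 and 783 by DESeq2, and 319 and 286 with the replicate block in limma. With 2 WT livers, effects of the size seen for Mt1 lay within the spread between livers. With 1 liver left out, calls between WT and TRPV4-KO were 3 and 1 without WT liver 1, 2 and 1 without WT liver 2, 8 and 6 without TRPV4-KO liver 1, 7 and 4 without TRPV4-KO liver 2, 750 and 541 without TRPV4-KO liver 3, 9 and 9 without GSK219 liver 1 and 13 and 8 without GSK219 liver 2. Between TRPV4-KO and GSK219 they were 80 and 61 without TRPV4-KO liver 3 and from 4 and 4 to 7 and 8 without any 1 of the others, and between WT and GSK219 at most 2 and 0. Log2 fold changes with 1 liver left out were 0.39 to 1.86 (Mt1) and 0.43 to 2.40 (Mt2) for WT over TRPV4-KO, 1.02 to 2.70 and 2.03 to 3.39 for WT over GSK219, and 0.14 to 2.45 (Mt2) for TRPV4-KO over GSK219. The replicate block raised calls between WT and TRPV4-KO livers in most lists, among them glutathione S-transferases (2 lower), acute-phase genes (3 higher), and neutrophil (8) and macrophage (5) markers.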
